A study of Mus musculus with 9 samples.

Results

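Translation initiation and elongation factors are the proteins that bring a ribosome to a messenger RNA, find its start codon and move it along the coding sequence. Their genes were taken by symbol alone: every row of the count tables beginning with Eif1 to Eif6 or with Eef1 or Eef2, without Eif2ak2 and without pseudogene names. This gave 66 members of 35006 gene symbols, of which 62 had enough reads to be tested. The other 4 were Eef1a2, with at most 4 reads in a library, Eif4e1b, with at most 1, and Eif2s3y and Eif2c5, with none. The symbols Eif2c1 to Eif2c4 are older names of the Argonaute genes of small-RNA silencing. They match the rule by name only and are described apart, but they stay in the counts of members.

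RNA came from bulge stem cells of C57BL/6J mice, isolated by flow cytometry as cells carrying CD34 and integrin alpha6 on their surface. The bulge is the part of the hair follicle that keeps the long-lived cells from which the hair regrows. Singly housed mice either had food without limit (ad libitum, AL, 5 libraries) or received each day 70% of the food eaten by matched AL animals (dietary restriction, DR, 4 libraries). Per the labels' protocols each preparation pooled 3 mice, and the labels state neither the animals' age and sex nor the follicles' stage, and no irradiation for these samples. It is not stated that every library had mice of its own, so the p-values below measure the spread between these libraries, part of which may be technical.

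Initiation begins when eIF2, bound to GTP and the initiator tRNA, joins the small ribosomal subunit together with eIF1, eIF1A, eIF3 and eIF5. The complex eIF4F, made of the cap-binding protein eIF4E, the scaffold eIF4G and the helicase eIF4A, brings this particle to the capped end of a messenger RNA. Both steps have well-known brakes. The 4E-BP proteins, which the nutrient-sensing kinase complex mTORC1 holds in check, bind eIF4E and keep it from eIF4G, and the eIF2alpha kinases phosphorylate eIF2 so that its exchange factor eIF2B is blocked. During elongation eEF1A delivers each aminoacyl-tRNA, the eEF1B subunits recharge eEF1A with GTP, and eEF2 moves the ribosome on, unless the kinase eEF2K has phosphorylated it.

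Under dietary restriction the transcripts of 43 of the 62 tested members did not pass the test of a difference from AL. Those that did included the repressors Eif4ebp1 and Eif4ebp2 and the kinase gene Eef2k as higher, and the eEF1 exchange subunits Eef1d and Eef1g as lower. Of all 62, 13 rose and 6 fell by edgeR's quasi-likelihood test, with an adjusted p under 0.05 taken as passing. That is 30.6% of the tested members, against 40.7% of all 15447 tested genes (19% higher and 21.7% lower). Without the Eif2c symbols it is 32.8% of 58 members, with a median log2 fold change of 0.07. The risen members were Eif4ebp1, Eif4ebp2, Eif4enif1, Eef2k, Eif2ak1, Eif2ak3, Eif2ak4, Eif2b1, Eif2b2, Eif2b4, Eif5b, Eif5a2 and Eif4e3. Those that fell were Eef1g, Eef1e1, Eef1d, Eif2d, Eif4e and Eif2b3. In 17 of the 62 members the values of the diets were fully apart, as they were in 32.9% of all tested genes. In 12 of them every DR library was above AL (15.9% of all tested genes), and in 5 every DR library was below (17%). The largest changes were just under 2-fold, 1.98-fold up for Eif4ebp1 and 1.97-fold down for Eef1e1. The 95% intervals of both reached past 2-fold. No member that passed changed by 2-fold or more, whereas 11.5% of all tested genes passed with at least that change, and 7 members passed with at least 1.5-fold, against 24% of all genes. The median log2 fold change was 0.03 over the members and -0.02 over all tested genes. Both medians were lower with library size only (-0.03 and -0.09) and with upper-quartile scaling (-0.03 and -0.08). For 37 of the 43 members that did not pass, the 95% interval of the fold change lay within 1.5-fold in either direction. The same held for 4832 of the 9157 tested genes that did not pass. Members had more reads (median log2 CPM 6.35, against 4.23 over all tested genes) and a smaller SE (median 0.11 against 0.15). The share of all gene reads that fell on members was 1.27% ± 0.0401 (SD, n = 5) for AL and 1.27% ± 0.0756 (SD, n = 4) for DR; values written with ± below are also mean and SD over these libraries.

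**Figure D1:**
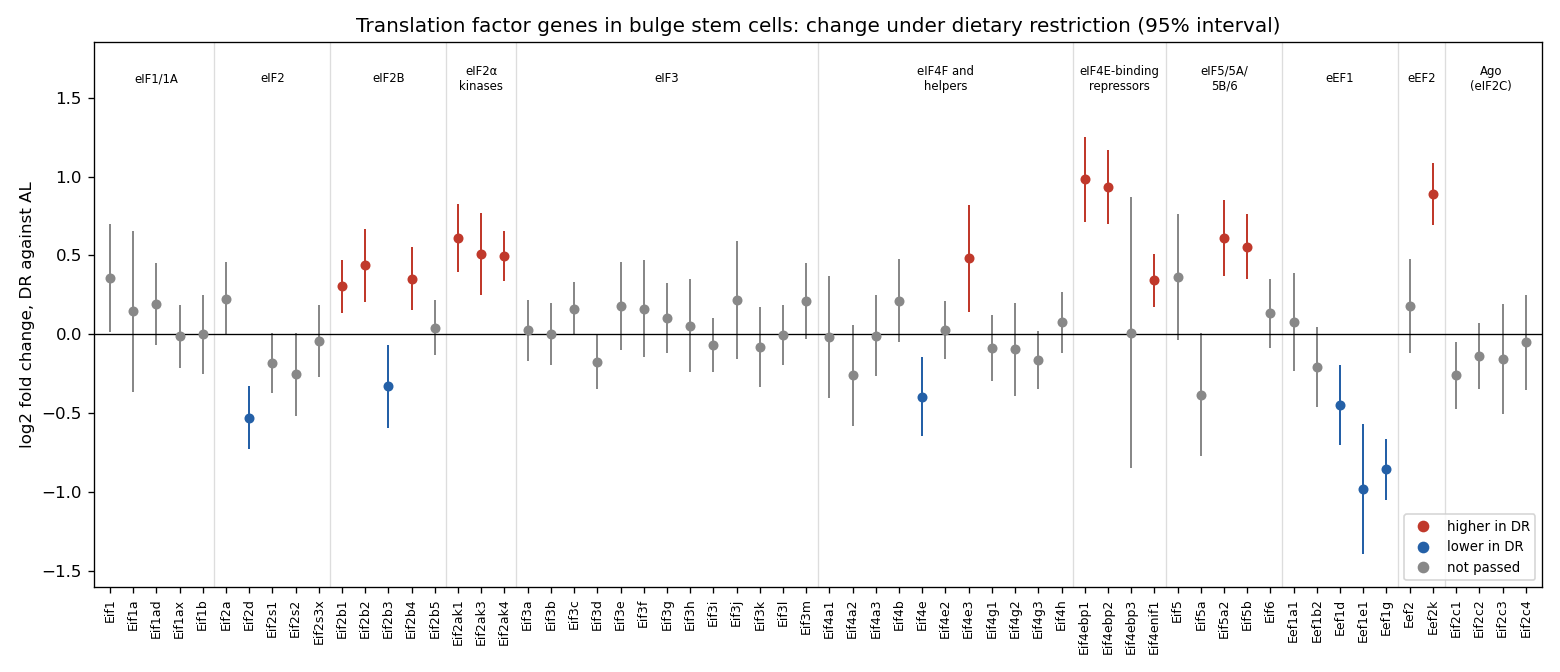
Log2 fold change of DR against AL for the 62 tested members, grouped by complex (points) with the 95% interval of each estimate (bars). Red and blue points passed edgeR's adjusted test, grey points did not. The repressors and kinases sit above 0, the 13 eIF3 subunits lie on both sides of 0, and 4 of the 5 eEF1 genes lie below it, of which 3 passed.

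Libraries held 26119459 to 33559312 gene reads, so the members' values are well counted: the lowest count of a tested member other than Eif4ebp3 was 141 reads. All 10 bulge markers were found in every library, with a summed level of 27557 to 38493 CPM (reads scaled to a common library size, TMM included) in AL and 20845 to 22285 CPM in DR, and 6 of them passed as lower. All 8 markers of dividing cells were lower in DR. Their summed level was 82.2 CPM in AL replicate 5, 313 to 613 CPM in the other AL libraries and 9.35 to 31.5 CPM in DR. Summed fibroblast markers ran from 74.0 to 123 CPM in AL and from 19.8 to 40.5 CPM in DR (2 of 6 lower, 1 higher). Most of this sum was Col1a1 and Col1a2, the markers that fell. Pdgfra was the marker that rose, with every DR library above every AL library. Dcn did not pass, and Col3a1 and Lum were not tested. The fibroblast sum therefore describes Col1a1 and Col1a2 and cannot show a change in fibroblasts. Melanocyte markers (111 to 230 CPM in AL, 124 to 176 CPM in DR, 2 of 5 lower) and markers of differentiated epidermis (1344 to 4021 and 1431 to 4534 CPM, none passing) overlapped between the diets as sums. Nearly all of the melanocyte sum was Mitf, which did not pass. Dct and Tyrp1 were the melanocyte markers that fell, and for Dct every DR library was below every AL library. Pmel did not pass and Mlana was not tested. The melanocyte sum therefore describes Mitf and cannot show whether melanocytes changed. Summed sebaceous markers were at 48.7 to 84.8 and 94.1 to 190.5 CPM (1 of 3 higher). Nearly all of that sum was Scd1, the marker that passed. Mc5r and Awat1 had at most 2 and 5 reads in a library and were not tested. The sebaceous sum therefore describes Scd1 and cannot show a change in sebaceous cells. Endothelial and immune markers, of which none was at 0 throughout and none passed, were highest in AL replicate 1, DR replicate 1 and DR replicate 2. In those 3 libraries the endothelial sum was 17.0, 34.7 and 21.0 CPM, and elsewhere it was 2.15 to 8.82 CPM. The immune sum was 31.2, 36.4 and 30.8 CPM in the same libraries, and 2.30 to 10.3 CPM elsewhere. The part of these cells and of division in the members' differences was not tested. Of the 19 calls, 15 were kept without AL replicate 1 and DR replicates 1 and 2. In sorted bulk cells a smaller share of cells of a kind and less RNA per cell cannot be told apart.

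The largest rises were among the proteins that bind eIF4E and hold back cap-dependent initiation. Eif4ebp1, which encodes the mTORC1-controlled repressor 4E-BP1, stood at 10.3, 9.49, 10.2, 8.51 and 12.4 CPM in AL replicates 1 to 5 and at 18.3, 20.05, 20.1 and 21.9 CPM in DR replicates 1 to 4. Every DR library was above every AL library. The log2 fold change was 0.98 (SE 0.12, edgeR adjusted p = 1.8e-04), a 1.98-fold rise. Its relative Eif4ebp2, the more abundant of the pair in reads, was at 33.4, 30.1, 33.1, 30.8 and 33.7 CPM in AL and at 47.6, 64.6, 68.2 and 65.8 CPM in DR. DR replicate 1 was the lowest of its group and still above all AL libraries (log2 fold change 0.93, SE 0.11, adjusted p = 1.1e-04). Eif4enif1, the eIF4E transporter that carries eIF4E to the nucleus and to processing bodies, rose from 69.1 ± 1.29 to 87.7 ± 7.99 CPM (0.34, SE 0.08, adjusted p = 0.0045). Eif4ebp3, the third 4E-BP gene, was near the limit of detection with an AL mean of 0.5682 ± 0.271 CPM and a DR mean of 0.577 ± 0.216 CPM. Its log2 fold change of 0.01 had a wide interval, from -0.85 to 0.87.

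Eif4e itself, the gene of the cap-binding protein, moved the other way. It was at 29.9, 30.8, 33.5, 38.9 and 26.6 CPM in AL and at 25.8, 22.5, 26.1 and 22.9 CPM in DR. The groups did not overlap, but AL replicate 5 and DR replicate 3 nearly met (log2 fold change -0.39, SE 0.11, edgeR adjusted p = 0.017). Leaving out DR replicate 2 or DR replicate 4 ended the call (adjusted p = 0.052 in both), as did leaving out AL replicate 1 with DR replicates 1 and 2 (0.10). Of the related cap-binding proteins, Eif4e2 did not pass (56.4 ± 4.67 and 57.5 ± 3.68 CPM, interval -0.16 to 0.21). Eif4e3 rose from 16.5 ± 2.63 to 23.0 ± 4.20 CPM (0.48, SE 0.16, adjusted p = 0.029), although DR replicate 3 at 16.9 CPM lay inside the AL range of 12.7 to 19.6 CPM. Eif4e3 was a borderline call. It did not pass with library size only (adjusted p = 0.058), with upper-quartile scaling (0.054) or in limma-voom with quality weights (0.051), and 6 of the 9 libraries, AL replicates 2, 3 and 4 and DR replicates 1, 2 and 4, each ended the call when left out (0.051 to 0.077). Without AL replicate 1 and DR replicates 1 and 2 its adjusted p was 0.18.

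Of the 11 tested genes of eIF4F and its helpers, these 2 were the only ones to pass, 18.2% against the background of 40.7%. The helicase genes Eif4a1 (309 ± 53.3 against 305 ± 73.4 CPM, log2 fold change -0.02, interval -0.40 to 0.37) and Eif4a2 (451 ± 57.7 against 377 ± 73.4 CPM, -0.26, interval -0.58 to 0.06) did not. Eif4a3, whose protein is a core part of the exon junction complex, was at 44.5 ± 4.87 and 44.2 ± 6.63 CPM. The scaffold Eif4g1 had 434 ± 26.6 against 408 ± 33.1 CPM (-0.09, interval -0.30 to 0.12). Eif4g2, whose protein lacks the eIF4E-binding part and works in cap-independent initiation, had 1276 ± 185 and 1195 ± 121 CPM (-0.09, interval -0.39 to 0.20). Eif4g3 (-0.16), Eif4b (0.21) and Eif4h (0.08), the latter 2 being cofactors of the helicase, likewise did not pass.

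**Figure D2:**
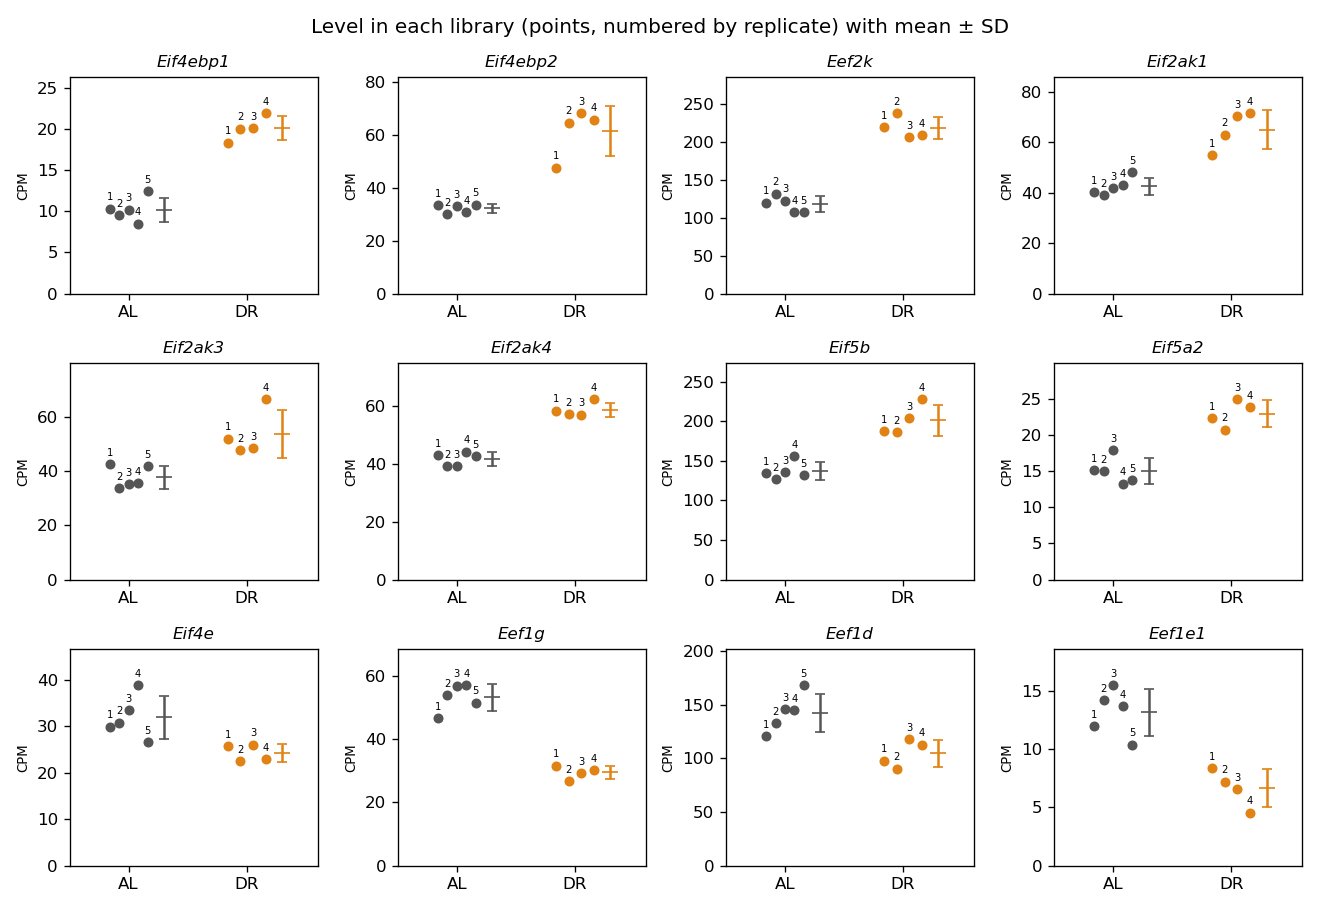
Level of 12 members in each library, in CPM on axes that start at 0, with AL in grey and DR in orange. Points carry the replicate number, and the bar beside them gives the group mean ± SD. Eif4ebp1, Eif4ebp2, Eef2k, the 3 eIF2alpha kinases among the members, Eif5b and Eif5a2 have all 4 DR libraries above the 5 AL libraries. The bottom row has all 4 below.

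Promoter sequence was read for the members from a RefSeq table (GRCm38.p6) of 250 bases before to 50 after each annotated start. Of the 66 members, 52 were found there, which is under 80%, so a comparison of motif shares between members and other genes is void and the counts only describe these windows. The E-box CACGTG, a palindrome bound by Myc with Max and by other factors of that family, was present in 12 of the 52 (23.1%), against 8.09% of the 27025 genes in the table and 11.7% of those tested here. Of the 12, 3 passed the test, Eif4e as lower and Eef2k and Eif5a2 as higher. Members that rose, fell or did not pass all had examples of it. Windows around it are shown for the genes of cap recognition, 5′ to 3′ on the gene's strand, with the motif in capitals:
Eif4e, chr3:138527030-138527055, plus strand: cgccagcgacCACGTGatcacttttt
Eif4e, chr3:138527194-138527219, plus strand: acacgtccgtCACGTGggcaggagcc
Eif4g1, chr16:20672663-20672688, plus strand: cagtgggtgtCACGTGatggggcgga
Eif4a1, chr11:69672597-69672622, minus strand: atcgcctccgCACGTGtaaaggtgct
Eif4h, chr5:134639490-134639515, minus strand: gccgccgcacCACGTGggccgcagag
In Eif4e the hexamer occurs at 2 places, which start 228 and 64 bases before the later of its 2 annotated starts. The 250 bases before the other start, at chr3:138525941-138526190, hold none of the motifs searched. The hexamers shown start 54 bases before the annotated start in Eif4g1, 189 in Eif4a1 and 96 in Eif4h, and Eif4g1 has another just after its start.

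For an opposite pair, the risen repressor Eif4ebp2 and its target Eif4e, the 250 bases before an annotated start (the later start of Eif4e) are given whole, with any E-box, C/EBP-ATF element (TGATGNAA) or cyclic AMP response element (TGACGTCA) on either strand in capitals. The C/EBP-ATF element was searched as the known site of ATF4, the factor whose synthesis rises when eIF2 is phosphorylated.
Eif4e, chr3:138527018-138527267, plus strand: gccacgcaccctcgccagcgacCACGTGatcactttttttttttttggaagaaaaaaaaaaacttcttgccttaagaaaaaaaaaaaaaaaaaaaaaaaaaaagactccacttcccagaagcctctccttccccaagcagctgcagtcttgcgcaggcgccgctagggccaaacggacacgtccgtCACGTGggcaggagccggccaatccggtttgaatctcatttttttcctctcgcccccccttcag
Eif4ebp2, chr10:61452670-61452919, minus strand: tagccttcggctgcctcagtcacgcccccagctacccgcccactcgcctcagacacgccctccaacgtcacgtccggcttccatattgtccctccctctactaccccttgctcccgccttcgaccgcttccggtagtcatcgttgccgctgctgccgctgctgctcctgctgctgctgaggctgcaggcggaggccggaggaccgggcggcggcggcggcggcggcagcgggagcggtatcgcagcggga
None of the 3 motifs occurs in the printed Eif4ebp2 stretch, which is 70% G and C, while the Eif4e stretch (48.8%) carries its E-boxes on either side of a run of A. Across the 52 members in the table the C/EBP-ATF element was found for Eef2k and Eif2s3x only. That is 3.85%, against 4.51% of all genes in the table and 2.80% of those tested here. The cyclic AMP response element was found for Eef2 only (1.92%, against 2.03% of all genes in the table and 3.63% of those tested). A terminal oligopyrimidine start, the mark of messenger RNAs whose translation mTORC1 controls, was taken as C and then at least 4 pyrimidines exactly at the annotated start. It was found for Eif3f, Eif2s3x and Eif2c5, the last of which had no reads. That is 5.77%, against 3.01% of all genes in the table and 2.99% of those tested here. The annotated starts may not be the ones used in these cells, so members without a match here may still have such a start.

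All 3 eIF2alpha kinases among the members rose, where 19% of all tested genes did. Eif2ak2, a further gene of this name series, was left out by the rule, so the 3 are not the whole series. These enzymes answer different stresses and share the target eIF2alpha. Eif2ak1, the kinase HRI that responds to heme shortage and mitochondrial stress, was at 40.3, 39.1, 41.7, 42.8 and 48.2 CPM in AL and at 54.9, 63.0, 70.3 and 71.4 CPM in DR. Its log2 fold change was 0.61 (SE 0.10, edgeR adjusted p = 7.2e-04). Eif2ak3, the endoplasmic reticulum stress kinase PERK, was at 42.4, 33.5, 35.1, 35.4 and 41.7 CPM in AL and at 51.9, 47.7, 48.3 and 66.4 CPM in DR, with DR replicate 4 well above the rest (0.51, SE 0.12, adjusted p = 0.0057). The amino acid sensor GCN2, encoded by Eif2ak4, had the tightest values, 43.2, 39.3, 39.2, 44.3 and 42.8 CPM in AL against 58.5, 57.2, 57.2 and 62.5 CPM in DR (0.49, SE 0.07, adjusted p = 4.4e-04). In none of these kinases did the diets overlap, and DR was fully above AL in 15.9% of all tested genes.

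The substrate eIF2 and its exchange factor did not move as a block. Eif2s1, which encodes the phosphorylated alpha subunit, had 31.0 ± 2.68 against 27.3 ± 1.09 CPM and did not pass (-0.18, interval -0.37 to 0.01, edgeR adjusted p = 0.11). Without AL replicate 5, the lowest AL library at 26.5 CPM, it passed as lower (adjusted p = 0.035). The beta subunit gene Eif2s2 (-0.25, interval -0.52 to 0.01) and the X-linked gamma subunit gene Eif2s3x (-0.04, interval -0.27 to 0.19) did not pass, nor did Eif2a (0.23), which encodes an alternative initiator tRNA-binding protein. Eif2d, a factor for non-canonical initiation and for recycling of the small subunit, was the member of this group that fell. It was at 52.8, 60.3, 59.6, 47.4 and 60.1 CPM in AL and at 40.5, 40.6, 36.8 and 37.5 CPM in DR (-0.53, SE 0.09, adjusted p = 0.0011), with no overlap. Of the genes of the related recycling pair, Mcts1 fell (-0.34, adjusted p = 0.014) and Denr did not pass (-0.24, adjusted p = 0.067).

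Of the 5 subunits of eIF2B, the factor that reloads eIF2 with GTP, 3 rose, 1 fell and 1 did not pass, against 19% higher and 21.7% lower among all tested genes. Eif2b2, a beta subunit of the regulatory core that senses phosphorylated eIF2, rose from 27.2 ± 2.51 to 36.9 ± 4.73 CPM (0.44, SE 0.11, edgeR adjusted p = 0.0069). Eif2b4, the delta subunit of the same core, rose from 30.5 ± 2.37 to 39.0 ± 3.57 CPM (0.35, SE 0.09, adjusted p = 0.0098). Eif2b1, the alpha subunit of that core, rose from 26.9 ± 0.895 to 33.3 ± 2.30 CPM (0.31, SE 0.08, adjusted p = 0.0088), although not with library size only (adjusted p = 0.057). Of the catalytic subunits, Eif2b5, the epsilon subunit that carries the exchange activity, did not pass. It was at 53.2 ± 4.11 and 54.8 ± 2.70 CPM (0.04, interval -0.13 to 0.22). Eif2b3, the gamma subunit, fell from 16.6 ± 1.78 to 13.3 ± 1.49 CPM (-0.33, SE 0.12, adjusted p = 0.048). That last call was fragile. It was lost with DESeq2 size factors (0.052), with no filter on low counts (0.076), and on leaving out AL replicate 2, 3 or 4 or any DR library (0.053 to 0.13), and without AL replicate 1 and DR replicates 1 and 2 (0.12).

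None of the 13 subunits of eIF3, the large scaffold that holds the small ribosomal subunit ready for the messenger RNA, passed by edgeR, where 40.7% of all genes did. At an unadjusted p under 0.05 there was 1, and DESeq2 called 1 and limma-voom 0. The log2 fold changes ran from -0.17 (Eif3d) to 0.22 (Eif3j). In 12 of the 13 the 95% interval stayed within 1.5-fold, as in 5686 of all 15447 tested genes. The core subunit Eif3a had 311 ± 16.9 against 317 ± 22.9 CPM (0.03, SE 0.09), Eif3b 169.98 ± 12.3 against 170.2 ± 14.2 CPM, and Eif3l 155 ± 8.35 against 154 ± 14.6 CPM. Among the DR libraries the spread was widest for Eif3f, which ran from 200.2 to 276 CPM in AL and from 220 to 335 CPM in DR.

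The factors eIF1 and eIF1A keep the scanning ribosome open until a start codon is found. The 5 genes grouped with them by name, Eif1ad among them, also gave 0 calls by edgeR, against 40.7% of all tested genes. There was 1 at an unadjusted p under 0.05, and DESeq2 called 0 and limma-voom 1. Eif1, which encodes the main start codon gatekeeper, was the closest, with 163 ± 31.5 against 209 ± 36.6 CPM (0.36, SE 0.16, edgeR adjusted p = 0.090). It passed as higher when AL replicate 5 (adjusted p = 0.021) or DR replicate 2 (0.047) was left out, and in limma-voom with quality weights (0.026). Its paralog Eif1b was at 23.0 ± 1.79 and 23.0 ± 3.42 CPM. Eif1ax (-0.01), Eif1ad (0.19) and Eif1a (0.15) did not pass.

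Among the factors of subunit joining, Eif5b rose. Its protein, the GTPase eIF5B, brings the large subunit to the start codon. It was at 135, 127, 136, 156 and 132 CPM in AL and at 187, 186, 204 and 228 CPM in DR, with no overlap (0.56, SE 0.09, edgeR adjusted p = 9.6e-04). Eif5, which makes eIF2 hydrolyse its GTP, had 295 ± 71.9 and 379 ± 69.8 CPM and did not pass (0.36, SE 0.18, adjusted p = 0.13). AL replicate 4 was its highest AL library at 407 CPM. Eif6, which keeps the large subunit from joining too early, was at 93.7 ± 9.14 and 103 ± 10.8 CPM (0.13, interval -0.08 to 0.35).

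The eIF5A protein, which carries the rare amino acid hypusine, relieves ribosomes stalled at stretches such as repeated prolines, and is encoded by Eif5a and Eif5a2. Eif5a2, the minor form, was at 15.2, 15.04, 17.9, 13.3 and 13.7 CPM in AL and at 22.3, 20.8, 25.0 and 23.9 CPM in DR, with all DR libraries above AL (0.61, SE 0.11, edgeR adjusted p = 0.0014). The common form Eif5a was at 295, 344, 366, 477 and 356 CPM in AL and at 327, 190.4, 319 and 292 CPM in DR. Its DR replicate 2 was far below the others, and it did not pass (-0.38, SE 0.18, adjusted p = 0.11), except as lower with library size only (0.039).

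In elongation, Eef1g, Eef1d and Eef1e1 fell, while Eef1b2, Eef1a1 and Eef2 did not pass. These 3 are 60% of the 5 tested eEF1 genes, where 21.7% of all genes were lower. Eef1g, the gamma subunit of the exchange complex, was at 46.6, 53.9, 56.8, 56.9 and 51.5 CPM in AL and at 31.5, 26.7, 29.2 and 30.1 CPM in DR. The gap between the groups was wide compared with the spread in either, and the log2 fold change was -0.85 (SE 0.09, edgeR adjusted p = 6.1e-05). Eef1d, the delta subunit, was at 121, 133, 146, 145 and 168 CPM in AL and at 97.8, 90.5, 118 and 113 CPM in DR. The diets did not overlap (-0.45, SE 0.11, adjusted p = 0.0099), and the call was lost without AL replicate 1 and DR replicates 1 and 2 together (0.065). The beta subunit gene Eef1b2 did not pass (440 ± 45.3 and 381 ± 43.6 CPM, -0.21, interval -0.46 to 0.05). Eef1e1, named for this complex but known as a scaffold part of the multi-tRNA-synthetase complex, had the largest fall of all members. It went from 12.0, 14.2, 15.5, 13.7 and 10.4 CPM in AL to 8.38, 7.21, 6.54 and 4.55 CPM in DR (-0.98, SE 0.19, adjusted p = 0.0019). AL replicate 5 was the AL library with the lowest level of division markers. Among the members that fell, it was the lowest of AL for Eef1e1, Eif4e and Eif2b3. It was the highest of AL for Eef1d, and within the AL range for Eef1g and Eif2d.

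Eef1a1, which encodes the tRNA carrier eEF1A, was at 1375, 1394, 1674, 1604 and 1917 CPM in AL and at 1500.1, 1509, 1908 and 1818 CPM in DR. The groups overlapped almost completely (0.08, interval -0.23 to 0.39). Its tissue-specific paralog Eef1a2, known from muscle and nerve, had 0 to 4 reads per library, so no fold is given. Eef2, the translocase, was at 2264, 2310.1, 2693, 2660 and 2876 CPM in AL and at 2672, 2592, 3373 and 2965 CPM in DR (0.18, interval -0.12 to 0.48, edgeR adjusted p = 0.32). Eef2k, the kinase that switches eEF2 off and is itself held back by mTORC1, rose. It was at 119.8, 132, 123, 108 and 107 CPM in AL and at 219, 238, 207 and 209 CPM in DR (0.89, SE 0.09, adjusted p = 5.6e-05). Its call held under all 18 alternative settings tried.

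The promoter of Eef2k is given as that of the member with the smallest p, and it holds an E-box, in capitals, which starts 31 bases before the annotated start of this window. The other 2 starts listed for the gene lie further along the chromosome.
Eef2k, chr7:120842581-120842830, plus strand: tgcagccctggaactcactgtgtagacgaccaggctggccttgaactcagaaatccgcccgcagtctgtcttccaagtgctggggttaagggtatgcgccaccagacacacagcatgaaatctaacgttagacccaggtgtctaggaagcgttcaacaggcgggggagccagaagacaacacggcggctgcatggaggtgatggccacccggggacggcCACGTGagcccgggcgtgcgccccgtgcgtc
At the third of these starts the C/EBP-ATF element lies 84 bases upstream, on the opposite strand, at chr7:120851095-120851122: tttctgcttgTTTCATCAagctcagctt

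To compare members with each other, levels were divided by exon length in GENCODE M21, whose gene models are not those used for counting. On this scale of CPM per kb of exon, Eef1a1 (888 ± 124 in AL, 939 ± 117 in DR) and Eef2 (829 ± 85.3 and 939 ± 114) stood above all other tested members. Their mean ± SD ranges overlapped in both diets, and the 2 genes were not compared within libraries. Next came Eef1b2 (227 ± 23.4 in AL), and then Eif4a1 (174 ± 30.1), Eif4g2 (159.6 ± 23.1), Eif5a (155 ± 28.1), Eif3k (151 ± 17.8) and Eif4a2 (141 ± 18.04), whose mean ± SD ranges overlapped. The subunits of eIF3 ran from 1.37 (Eif3j) to 151 (Eif3k) CPM per kb in AL, the other 11 lying between 37.2 and 119. Eif4e stood at 6.23 ± 0.895 CPM per kb in AL and 4.74 ± 0.368 in DR. That is far below its partners Eif4a1 and Eif4g1 (71.8 ± 4.41 in AL) and near its repressors Eif4ebp1 (5.10 ± 0.721) and Eif4ebp2 (5.57 ± 0.285). In DR these repressors reached 10.1 ± 0.733 and 10.6 ± 1.63 CPM per kb. Reads that map to several places were 10.4% to 13.6% of each file and are listed apart from the genes, so members with near-identical processed copies elsewhere in the genome may be undercounted.

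**Figure D3:**
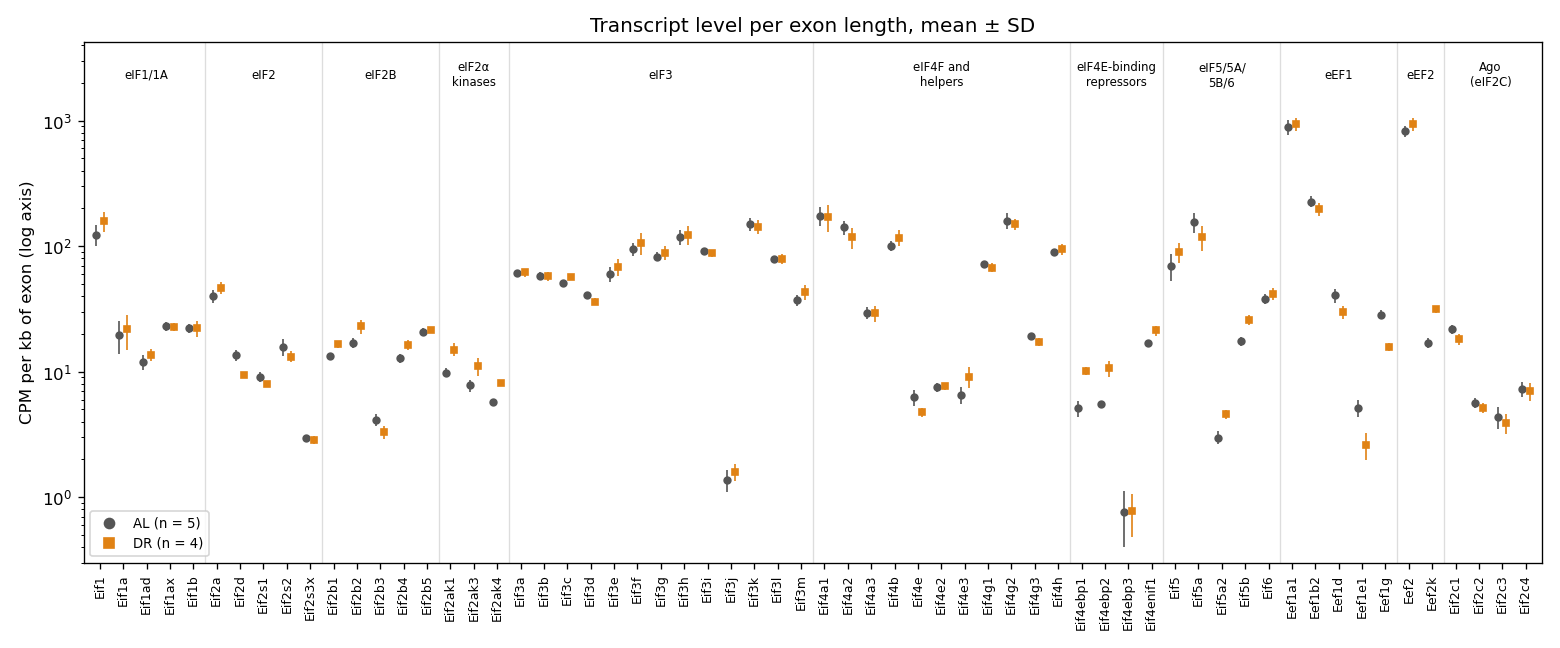
Mean level per exon length (CPM per kb, log axis) of the 62 tested members in AL (grey circles) and DR (orange squares), with SD bars. Eef1a1 and Eef2 stand at 829 to 939, all eIF3 subunits but Eif3j between 36.2 and 151, and Eif4e, its relatives and the 4E-BP genes at or below 10.6.

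Ratios of paralogs within a library need no scaling between libraries, and 10 pairs were compared by an exact two-sided permutation test, whose smallest possible p with 5 against 4 libraries is 0.0159. None passed adjustment over the pairs (smallest adjusted p = 0.159), and 1 pair alone at the smallest p cannot pass it. The log2 ratio of Eif5a2 to Eif5a was -4.28, -4.51, -4.36, -5.16 and -4.69 in AL and -3.87, -3.20, -3.67 and -3.61 in DR. All DR libraries were above all AL libraries, a difference of 1.01 (exact p = 0.0159, adjusted p = 0.159). The ratios to Eif4e differed by 0.86 for Eif4e3 and 0.41 for Eif4e2 (both exact p = 0.0476, adjusted p = 0.159), with overlap of the groups in each. The ratio of Eif4ebp2 to Eif4ebp1 was 1.67 ± 0.149 in AL and 1.602 ± 0.167 in DR on the log2 scale, a difference of -0.07 (exact p = 0.508, adjusted p = 0.564). Eif4a2 to Eif4a1 (difference -0.24, exact p = 0.0794), Eif4g2 to Eif4g1 (-0.00, p = 0.905), Eif4g3 to Eif4g1 (-0.08, p = 0.460) and Eif1b to Eif1 (-0.37, p = 0.111) had adjusted p of 0.185 to 0.905. The pairs with Eif4ebp3 (exact p = 0.0952) and Eef1a2 (exact p = 0.413) rest on few reads.

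Spread within a diet differed between members. The SD of log2(CPM + 0.5) was lowest in AL for Eif4enif1 (0.03), Eif2s3x (0.04), Eif4h (0.04) and Eif2b1 (0.05). It was among the highest for Eif1a (0.38 in AL and 0.45 in DR), Eif5 (0.33 and 0.27), Eif4a1 (0.26 and 0.35), Eif5a (0.25 and 0.36) and the thinly counted Eif4ebp3 (0.35 and 0.31). AL replicate 4 was the highest AL library for Eif1a, Eif5, Eif4a1, Eif5a and Eif4g2, and DR replicate 1 was the highest DR library for Eif1a, Eif5, Eif4a1 and Eif5a. Atf4, the transcription factor made when eIF2 is phosphorylated, was also highest in those libraries, with 745 CPM in AL replicate 4 and 368 to 674 CPM in the other AL libraries, and with 613 CPM in DR replicate 1 and 306 to 512 CPM in the other DR libraries.

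**Figure D4:**
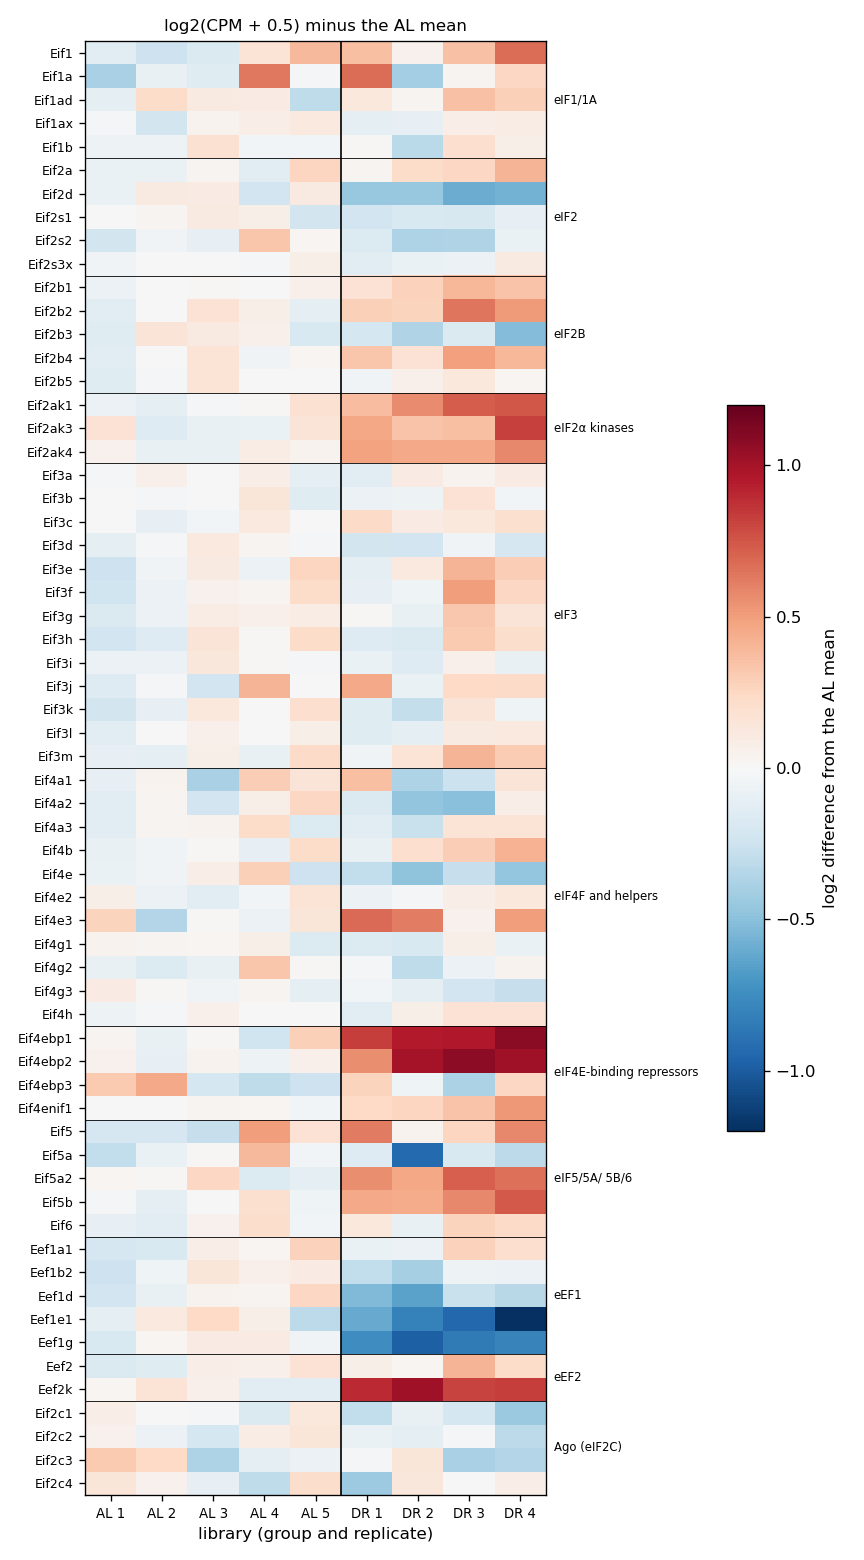
Difference of each library from the AL mean, in log2(CPM + 0.5), for the 62 tested members (rows, grouped by complex) in 5 AL and 4 DR libraries (columns, parted by a line). Red is above and blue below the AL mean. Rows such as Eef2k and Eif4ebp1 change colour at the line, while Eif1a is high in AL replicate 4 and DR replicate 1.

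The 4 tested Argonaute genes under their older symbols gave 0 calls by edgeR (1 at an unadjusted p under 0.05, 1 by DESeq2 and 1 by limma-voom), where 40.7% of all tested genes passed. Eif2c1 (Ago1) came closest, with 158 ± 12.7 against 132 ± 13.5 CPM (-0.26, SE 0.10, edgeR adjusted p = 0.051). Eif2c2 (Ago2, -0.14), Eif2c3 (Ago3, -0.16) and Eif2c4 (Ago4, -0.05) also did not pass.

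Further genes of translation lie outside the symbol rule. Of 43 tested, 5 rose and 4 fell, 20.9% against the 40.7% background, with a median log2 fold change of -0.05. Without AL replicate 4, 9 rose, and without AL replicate 5, 7 fell. Mknk2, which encodes an eIF4E kinase, rose from 391 ± 102 to 724 ± 103 CPM (0.89, SE 0.18, edgeR adjusted p = 0.0031), while Mknk1, the gene of the other eIF4E kinase, did not pass (-0.07, adjusted p = 0.68). Mtif3, a mitochondrial initiation factor, rose by 0.59 and Hbs1l, a factor that rescues stalled ribosomes, by 0.31. Tsfm, the mitochondrial elongation factor Ts (-0.78), Mtif2, a mitochondrial initiation factor (-0.47), and Mcts1 (-0.34) fell. Paip2 (0.35) and Paip2b (0.38), which encode repressors that take the poly(A)-binding protein away from messenger RNA, complete the rises, and the helicase gene Dhx29 (-0.36) the falls. The eIF2 phosphatase subunits Ppp1r15a (0.49, adjusted p = 0.15) and Ppp1r15b (-0.18, adjusted p = 0.38) and Atf4 (-0.19, adjusted p = 0.56) did not pass.

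Of 81 tested cytosolic ribosomal protein genes, the other main part of the machinery, 1 rose and 7 fell. That is 9.88% against 40.7% of all tested genes, with a median log2 fold change of -0.10 against -0.02. Rpl15 (63.4 ± 4.91 to 33.3 ± 6.60 CPM, -0.93, edgeR adjusted p = 2.8e-04), Rpl31 (-0.92) and Rpl27a (-0.61) had the smallest p. The single rise, Rpl23a (3.09, adjusted p = 0.043), rested on DR replicate 3 at 71.4 CPM, against 1.44 to 5.39 CPM in the other DR libraries and 0.939 to 6.56 CPM in AL, and no ribosomal protein gene rose without that library or without AL replicate 1, 3 or 5. Without DR replicate 2, 4 rose and 3 fell, and without DR replicate 3, 4 fell. Many of these genes have processed copies that share reads, so their single values are uncertain.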

How the data were processed

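The authors deposited raw read counts for each gene symbol, in a file for every library, without normalization. FastQC 0.11.5, TopHat2 2.1.0, HTSeq 0.11.2, Bowtie and the build mm9 are named by the submitters' processing notes. The annotation, the strand setting and the handling of reads with several positions were not given in the sources used here. Of the 35012 lines in a file, 6 name no gene, and these were left out (25.9% to 30.7% of the reads). No pair of libraries of a diet agreed within counting noise (chi-square divided by its degrees of freedom was 26.4 to 118).

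DR was compared with AL by edgeR 4.0.16 in R 4.3.3 on all genes: filterByExpr by group, TMM scaling, glmQLFit and glmQLFTest on diet alone, and Benjamini-Hochberg adjustment over the 15447 genes kept. CPM are after TMM; SE and 95% intervals are those implied by the F statistic. The test was tried on simulated counts first. Paralog ratios used log2 counts plus 0.5 and exact permutation in scipy 1.17.1. Alternatives were DESeq2 1.42.0 size factors and its Wald test, scaling by upper quartile or by library size alone, keeping every gene with a count, at least 1 CPM in every library of a diet, limma-voom (limma 3.58.1) with quality weights, a replicate block, a pseudocount of 5 for the ratios and leaving out each library. Leaving out AL replicate 1 and DR replicates 1 and 2 together was added after seeing the data.

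The members and gene lists were chosen with earlier results of these data known. Values are given for members that passed (up to 4 per complex and direction), for a fixed set of core members and paralog pairs, and for up to 3 genes per direction of the other lists; other members named were chosen after their values were seen. The 2 symbols Dph6 and Dph7 of the other list were not found. Older symbols were matched through RefSeq synonyms.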

Additional observations from a re-analysis of the deposited data

Results flagged for a closer look

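In 5 of the 124 groups of 4 or 5 libraries examined, 2 for each tested member, a library stood apart from the rest by Dixon's test; chance gives about 1 in 20. Eif1a was at 124 CPM in AL replicate 4, against 60.6 to 78.2 CPM in the other AL libraries. Eif1b was at 26.1 CPM in AL replicate 3, against 21.9 to 22.4 CPM. Eif3b was at 191 CPM and Eif3d at 75.1 CPM in DR replicate 3, against 161 to 165 CPM and 66.0 to 67.3 CPM in the other DR libraries. Eif4g1 was at 387 CPM in AL replicate 5, against 439.7 to 455 CPM. None of these 5 members passed the comparison of diets.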

How the results depend on the processing

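Of the 19 calls, 14 held in the same direction under all 18 alternative fits (11 higher, 3 lower), and 5 were lost in some: Eef1d, Eif2b1, Eif2b3, Eif4e and Eif4e3. Of the 629 values of named members, 31 changed side of the threshold and no called member changed sign; members that did not pass could, such as Eif4a1 (-0.16 to 0.09). Leaving out each library in turn gave 12 to 15 members higher and 4 to 7 lower. Without AL replicate 1 and DR replicates 1 and 2, 12 were higher and 3 lower, with 0 of either kind in eIF4F, 0 lower in eIF2B and 3 ribosomal protein genes lower. Among the other translation genes, 8 were higher by DESeq2's Wald test, 10 higher and 7 lower by limma-voom, 8 lower with upper-quartile scaling, and 5 to 9 higher and 3 to 7 lower without single libraries. For ribosomal proteins limma-voom gave 0 higher, and leaving out single libraries 0 to 4 higher and 3 to 8 lower. By complex, limma-voom gave 1 higher in eIF1, 1 higher in eIF2, 0 higher in eIF4F and 1 Argonaute lower. Library size only gave 2 lower in eIF2, 1 lower in the eIF5 group, 0 higher in eIF4F and 1 Argonaute lower. Upper-quartile scaling gave 2 lower in eIF2, 1 lower in eIF3, 0 higher in eIF4F and 1 Argonaute lower. DESeq2's Wald test gave 1 higher in eIF3 and 1 Argonaute lower, the stricter filter 1 Argonaute lower, and DESeq2 size factors and no filter each 0 lower in eIF2B. Without single libraries, counts ran from 0 to 1 for higher eIF1, eIF2 and eIF3, for lower eIF2B and Argonautes and for eIF4F in both directions, and from 1 to 2 for lower eIF2. The causes were not tested. Depth limits Eif4ebp3, Eef1a2 and Eif4e1b, which have few reads.

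Whether the replicate numbers pair the libraries was not tested. Same-numbered AL and DR libraries had low correlations of 0.0386, 0.132, 0.228 and 0.0289 in their deviations. Of the 4 DR libraries, 1 correlated best with its own number. With the replicate block, 18 members were higher and 6 lower, with 1 higher in eIF1 (Eif1 itself, edgeR adjusted p = 0.0051), 1 in eIF2 and 2 in eIF3, 7 other translation genes lower, and 0 ribosomal protein genes higher and 4 lower.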

Other observations

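Set against each other within a library, the transcripts of the 4E-BP repressors and of their target moved apart. This ratio was chosen after its parts had been seen and is given without a test. Eif4ebp1 and Eif4ebp2 together, per kb of exon, were 1.87, 1.66, 1.66, 1.26 and 2.32 times the level of Eif4e in AL replicates 1 to 5 and 3.46, 4.84, 4.30 and 5.01 times in DR replicates 1 to 4. The groups of this ratio could not overlap, since both repressors were fully above AL in DR and Eif4e fully below. Their separation therefore adds nothing to the calls of the 3 genes. Eef2k for every 1000 units of Eef2, also per kb, was 20.8 ± 3.67 in AL (16.6 to 25.3) and 34.0 ± 5.93 in DR (27.3 to 40.8), without overlap.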
